A study of Mus musculus with 10 samples.

Results

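The genes of fatty acid uptake and binding were described here in mouse liver 12 hours after partial hepatectomy, the surgical removal of the left lateral and median lobes. The set was fixed by symbol, and each of its 10 genes (Cd36, Fabp1, Fabp2, Fabp4, Fabp5, Slc27a1, Slc27a2, Slc27a4, Vldlr and Lpl) was found among the 23056 symbols of the count table. Polyadenylated RNA had been sequenced in 10 liver libraries, 6 labelled WT (wild type) and 4 labelled IFRD1-KO (knockout of Ifrd1, KO below). Both groups had the same surgery under isoflurane and the same time point and were compared with each other only, so no value below is a change from resting liver. The labels give no strain, sex, age, allele or cell type of the knockout.

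Long-chain fatty acids reach the hepatocyte bound to albumin or inside lipoproteins, whose triglycerides are split at the vessel wall by lipoprotein lipase. They enter with the help of the scavenger receptor CD36 and of the fatty acid transport proteins of the SLC27 family, most of which also couple the acid to coenzyme A. Inside the cell they are carried by small fatty acid binding proteins (FABPs), of which FABP1 is the main form in hepatocytes. After hepatectomy the remaining liver is known to take up fatty acids from adipose tissue and to store them for a time as droplets.

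Promoter sequences are shown for the members with a called difference (Slc27a2, Fabp2), for the most abundant member (Fabp1) and for the member with the largest fold change (Vldlr). Each runs from 250 bases before to 50 bases after a RefSeq start site on GRCm38.p6 and is written 5′ to 3′ on the gene's own strand. Capitals mark matches, on either strand, to TATAAA (the TATA box), to a direct repeat of AGGNCA with 1 base of any kind between its copies (the DR1 element bound by PPAR with RXR and by HNF4), to a single AGGTCA and to TGATGNAA (a core bound by ATF4 with C/EBP partners). In Fabp1 only the repeat and the TATA box are in capitals: of its AGGTCA matches, both on the minus strand, 1 overlaps the repeat and the other, 9 bases before the start site, is left in lower case.
Slc27a2, chr2:126552774-126553073, plus strand: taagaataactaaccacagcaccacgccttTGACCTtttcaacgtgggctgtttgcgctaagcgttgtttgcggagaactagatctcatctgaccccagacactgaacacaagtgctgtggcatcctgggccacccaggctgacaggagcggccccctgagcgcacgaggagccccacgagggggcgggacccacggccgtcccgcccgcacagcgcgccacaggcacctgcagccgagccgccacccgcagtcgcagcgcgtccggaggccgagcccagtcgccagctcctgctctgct
Fabp2, chr3:122894822-122895121, plus strand: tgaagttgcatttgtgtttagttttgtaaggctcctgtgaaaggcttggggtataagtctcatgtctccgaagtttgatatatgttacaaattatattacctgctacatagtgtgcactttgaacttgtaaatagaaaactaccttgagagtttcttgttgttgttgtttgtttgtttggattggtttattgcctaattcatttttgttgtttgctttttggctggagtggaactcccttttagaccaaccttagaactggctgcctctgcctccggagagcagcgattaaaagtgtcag
Fabp1, chr6:71199629-71199928, plus strand: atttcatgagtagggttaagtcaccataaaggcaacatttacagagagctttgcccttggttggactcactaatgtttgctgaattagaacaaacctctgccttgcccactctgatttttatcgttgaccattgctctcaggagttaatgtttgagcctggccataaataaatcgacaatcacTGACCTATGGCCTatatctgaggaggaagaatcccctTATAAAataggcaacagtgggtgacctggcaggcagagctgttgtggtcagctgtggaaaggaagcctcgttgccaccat
Vldlr, the downstream of its start sites, chr19:27216770-27217069, plus strand: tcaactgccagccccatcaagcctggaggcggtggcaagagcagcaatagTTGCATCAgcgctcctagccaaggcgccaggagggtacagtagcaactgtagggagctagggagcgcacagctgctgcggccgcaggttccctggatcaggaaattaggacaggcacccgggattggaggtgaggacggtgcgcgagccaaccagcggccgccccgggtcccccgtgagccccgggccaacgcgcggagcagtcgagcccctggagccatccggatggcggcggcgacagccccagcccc

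The Fabp1 window held the direct repeat, which began 67 bases before the start site on the minus strand, and a TATA box 30 bases before it. Of 32851 RefSeq promoter windows of the same length, 0.381% held the repeat and 13.6% the TATA box. The Slc27a2 window held a single AGGTCA on the minus strand, as 16.3% of all windows did. The Vldlr window held the ATF4 core on the minus strand, found in 3.97% of all windows. The window of the upstream Vldlr start site, chr19:27216234-27216533, held none of the 4 motifs, nor did the Fabp2 window shown. A match describes letters and is neither a binding site nor a cause of any value here. RefSeq promoter entries were matched for 7 of the 10 members, and the set of promoters used held no entry for Fabp4, Fabp5 and Lpl.

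The libraries held 12307446 to 17098012 counts. Ifrd1, the check of the labels, spanned 40.2 to 81.7 CPM (read counts relative to the TMM-scaled library size) across WT libraries and 13.02 to 22.6 CPM across KO libraries, without overlap (adjusted p = 0.0258, edgeR). The 7 hepatocyte markers summed to 44900 to 96010 CPM in WT and 60470 to 70580 CPM in KO, and 0 of 7 passed the test. For 9 of the 10 members, and for 69.5% of the 13688 genes tested, WT replicate 4 was nearer on the log2 scale to KO than to its own group (the mean of the remaining WT replicates). Where leaving it out changed the call of a member, or of the gene with the smallest p in a list below, both values are given. Mitochondrial transcripts made up 14.5% to 17.6% of counts in WT replicates 1 to 3, 24.5% to 28.9% in WT replicates 4 to 6, 30.5% in KO replicate 3 and 16.5% to 22.2% in the other KO libraries.

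All 10 members passed the filter on low counts, and 2 of them passed the test: Slc27a2, a very long-chain acyl-CoA synthetase and fatty acid transporter, and Fabp2, the intestinal-type FABP, rose in KO by 1.00 and 1.22 on the log2 scale. This was 2 of 10 members against 1.33% of all genes tested in either direction, and 0.563% in the direction higher in KO. The members were chosen with earlier results of these data known, so such shares are not an independent comparison. Of the other 8 members, 5 had fold changes above 0 and 3 below 0. The median log2 fold change of the members was 0.68, beside -0.02 over all genes tested. At an unadjusted p under 0.05 there were 7 members higher and 1 lower in KO, where 26% of all genes stood, 11.6% higher and 14.4% lower. The KO libraries were separate from the WT libraries for 2 members, both higher in KO, against 6.9% of all genes tested (3.61% higher and 3.29% lower in KO). In bulk tissue, fewer cells of a type and less RNA per cell cannot be told apart.

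The calls depended on single libraries. Without WT replicate 4 edgeR called 6 members (Slc27a2, Fabp2, Fabp5, Cd36 and Fabp4 higher, Vldlr lower), where 21.4% of all genes were called. Without any 1 of WT replicates 1, 2, 3, 5 and 6 or KO replicates 1 to 4 it called 0 members, and the share of all genes called was 0.0148%, 0.405%, 0.0734%, 0.0148% and 0.147% in these WT cases, 0.0144% without KO replicate 4 and 0% in the other KO cases. With the replicate number as a block, 0 members and 0.00731% of all genes were called. In that fit WT replicates 5 and 6, which have no KO library of the same number, add nothing to the estimated difference between groups. DESeq2 on all libraries called 5 members (Slc27a2, Fabp2, Fabp5 and Cd36 higher, Vldlr lower), where 11.8% of all genes were called. RLE scaling (1.37% of all genes called), upper-quartile scaling (1.12%), no filter (1.01%), a filter of 1 CPM in 4 libraries (1.34%), no robust estimation (1.43%) and limma-voom (2.32%) each called the 2 members. No member changed direction in any of 18 alternative fits.

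**Figure D1:**
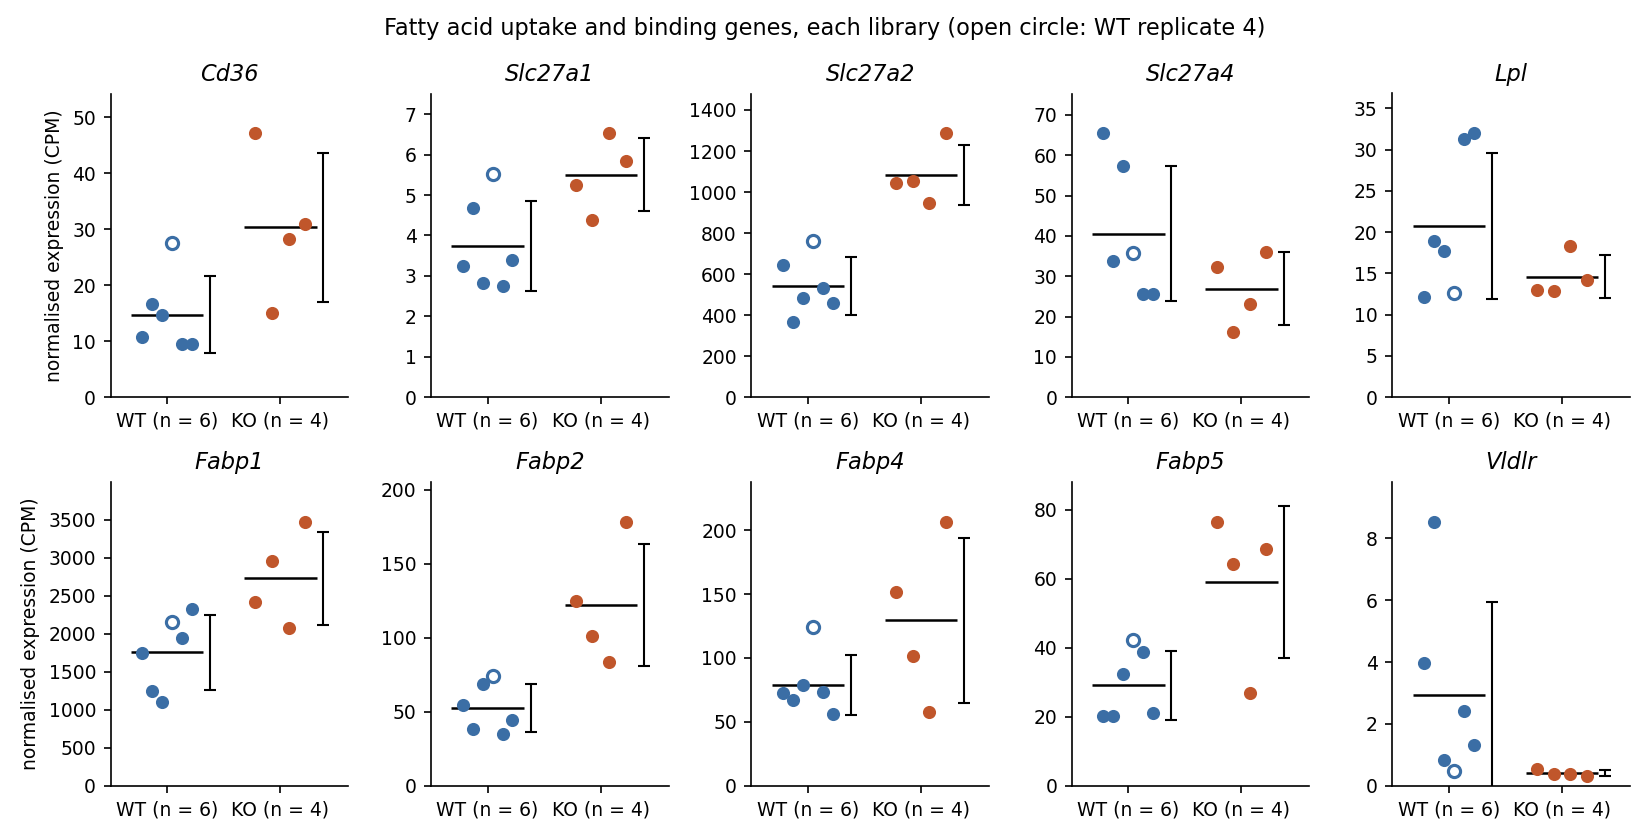
Normalised expression (CPM, linear axes from 0) of the 10 genes in each library, WT in blue and KO in orange, with the group mean (line) and SD (bar, drawn down to 0 where it would pass below it); the open circle is WT replicate 4. For Slc27a2 and Fabp2 every KO library lay above every WT library, and in the other genes the groups overlapped.

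Slc27a2 encodes FATP2, the transport protein of the SLC27 family that is best known from liver and kidney, on the plasma membrane, peroxisomes and endoplasmic reticulum (chromosome 2, 126552407 to 126588243, plus strand, GENCODE M21 on GRCm38). In WT replicates 1 to 6 it was at 645, 369, 482, 760, 534 and 459 CPM, and in KO replicates 1 to 4 at 1045, 1053, 944 and 1287 CPM. The lowest KO library was above the highest WT library, which was WT replicate 4. The mean rose from 541 ± 140 CPM (SD, n = 6) to 1082 ± 145 CPM (SD, n = 4). The log2 fold change was 1.00 (SE 0.21, 95% interval 0.56 to 1.44, adjusted p = 0.0466, edgeR). The exact two-sided permutation test on log2(CPM + 0.5) gave an unadjusted p = 0.00476, the smallest that 210 allocations allow. Without any 1 of the libraries other than WT replicate 4 the edgeR adjusted p lay between 0.0552 and 0.148, with log2 fold changes of 0.91 to 1.06, and with WT replicate 4 left out they were 0.0024 and 1.12. With the replicate number as a block the adjusted p was 0.131 (edgeR). A long noncoding RNA on the opposite strand, Gm26697, shares 419 exonic bases with Slc27a2, and reads of both cannot be told apart where counting ignores strand.

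Fabp2 encodes a FABP known best from enterocytes (chromosome 3, 122895072 to 122899506, plus strand). It was at 54.3, 38.5, 68.5, 74.4, 34.6 and 44.5 CPM in WT replicates 1 to 6 and at 125, 101, 83.8 and 178 CPM in KO replicates 1 to 4. Again no WT library reached the lowest KO library, KO replicate 3, and WT replicate 4 was the highest of its group. The mean rose from 52.5 ± 16.2 CPM (SD, n = 6) to 122 ± 41.2 CPM (SD, n = 4), with a log2 fold change of 1.22 (SE 0.26, 95% interval 0.67 to 1.77, adjusted p = 0.0468, edgeR). The exact two-sided permutation test gave an unadjusted p = 0.00952. Left-out libraries other than WT replicate 4 gave edgeR adjusted p of 0.0617 to 0.147 and log2 fold changes of 0.98 to 1.37, against 0.00376 and 1.35 without WT replicate 4, and the replicate block gave 0.131. Of 6 enterocyte markers 3 were measured, and they summed to 352 to 1643 CPM in WT and 1492 to 2652 CPM in KO. The KO maximum was in KO replicate 4, as for Fabp2. The WT maximum was in WT replicate 2, where Fabp2 was at 38.5 CPM, in the lower part of its WT range. Nearly all of the marker sum was Apoa4, an apolipoprotein that hepatocytes also make, at 958 ± 510 CPM (SD, n = 6) in WT libraries and 1972 ± 504 CPM (SD, n = 4) in KO libraries (log2 fold change 1.04, adjusted p = 0.13, edgeR). Vil1 had at most 4 counts and Lct at most 2 in any library. The part of such cells in the Fabp2 values was not tested.

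The other SLC27 members did not pass. Slc27a1 encodes FATP1, a transporter known mainly from muscle and fat (chromosome 8, 71568882 to 71587302, plus strand). It was at 2.76 to 5.51 CPM in WT (median 3.32) and at 5.24, 4.39, 6.53 and 5.85 CPM in KO replicates 1 to 4, from 32 to 95 counts a library. KO replicates 3 and 4 lay above all WT libraries and the other KO libraries within the WT range. KO differed from WT by a log2 fold change of 0.55 (95% interval 0.01 to 1.09, adjusted p = 0.183, edgeR).

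Slc27a4 encodes FATP4, which in gut and skin is the best known transporter of the family (chromosome 2, 29802634 to 29817522, plus strand). It was at 65.5, 33.7, 57.3, 35.9, 25.6 and 25.5 CPM in WT replicates 1 to 6 and at 32.3, 16.1, 23.1 and 36.1 CPM in KO replicates 1 to 4. WT replicates 1 and 3 were high, and the other WT libraries shared the KO range. The log2 fold change was -0.59 (95% interval -1.27 to 0.08, adjusted p = 0.25, edgeR), and was -0.41 without WT replicate 1. Its fold change thus pointed the other way from those of Slc27a1 and Slc27a2, and no test of that difference was run.

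Cd36, the scavenger receptor that binds long-chain fatty acids and oxidised lipoproteins, is low in healthy liver and known to rise in fatty liver (chromosome 5, 17781690 to 17888801, minus strand). It was at 10.8, 16.7, 14.6, 27.6, 9.41 and 9.51 CPM in WT replicates 1 to 6 and at 47.2, 14.9, 28.3 and 30.8 CPM in KO replicates 1 to 4. KO replicates 1, 3 and 4 were above every WT library, while KO replicate 2 lay below WT replicates 2 and 4. KO differed from WT by a log2 fold change of 1.04 (SE 0.34, 95% interval 0.29 to 1.78, adjusted p = 0.0991, edgeR), a 2.05-fold difference that did not pass. The exact two-sided permutation test gave an unadjusted p = 0.0381. Without WT replicate 4 the adjusted p was 0.00918 (log2 fold change 1.31), and without KO replicate 1 it was 0.268 (0.74, edgeR).

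Fabp1 encodes liver-type FABP, one of the most abundant proteins of the hepatocyte cytosol (chromosome 6, 71199827 to 71205023, plus strand). It was at 1749, 1252, 1101, 2159, 1939 and 2325 CPM in WT replicates 1 to 6 and at 2412, 2953, 2074 and 3476 CPM in KO replicates 1 to 4. KO replicate 3 lay below WT replicates 4 and 6, and the other KO libraries were above all of WT. The means were 1754 ± 490 CPM (SD, n = 6) and 2729 ± 616 CPM (SD, n = 4), with a log2 fold change of 0.64 (SE 0.24, 95% interval 0.12 to 1.16, adjusted p = 0.13, edgeR). No alternative fit called Fabp1. Its reads were 86% to 95% of those of the 4 FABP members in WT and 87.2% to 92.5% in KO.

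Fabp4 and Fabp5 both lie on chromosome 3 (10204088 to 10208576, minus strand, and 10012548 to 10016607, plus strand) and encode the FABPs of adipocytes, macrophages and capillary endothelium and of skin. Fabp4 was at 72.7, 67.3, 79.0, 124, 73.5 and 55.8 CPM in WT replicates 1 to 6 and at 152, 101, 57.6 and 207 CPM in KO replicates 1 to 4. KO replicate 3 lay near the bottom of the WT range and KO replicate 4 far above it, a 3.59-fold range within KO. The log2 fold change was 0.72 (SE 0.31, 95% interval 0.05 to 1.39, adjusted p = 0.169, edgeR), and was 0.40 without KO replicate 4 and 0.97 without KO replicate 3. Without WT replicate 4 it was 0.89 (adjusted p = 0.0467, edgeR).

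Fabp5 was at 20.3, 20.2, 32.3, 42.2, 38.8 and 20.95 CPM in WT replicates 1 to 6 and at 76.6, 64.2, 26.8 and 68.6 CPM in KO replicates 1 to 4. As for Fabp4, KO replicate 3 was the lowest of its group and lay inside the WT range, while the other KO libraries were above it. KO differed from WT by a log2 fold change of 1.02 (SE 0.30, 95% interval 0.37 to 1.68, adjusted p = 0.08, edgeR), and the adjusted p was 0.0183 without WT replicate 4. Processed pseudogenes with at least 90% identity over at least 300 bases of the Fabp5 transcript (Gm13998, Gm14328 and Gm6166) held 0 to 15 counts a library in sum, against 267 to 1388 for Fabp5. The 2 further copies, Fabp5l2 and Gm6100, were not among the symbols of the count table. How reads shared with these copies were counted is not known, so the Fabp5 counts are uncertain to that extent.

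Markers of cells that also express Fabp4, Fabp5, Cd36 and Lpl were examined beside these values. The 10 endothelial markers summed to 149 to 314 CPM in WT and 157 to 255.5 CPM in KO, and the 10 macrophage markers to 55.2 to 307 CPM in WT and 47.3 to 84.2 CPM in KO. None of the genes in either list passed the test. The endothelial sum holds markers that differ in direction. Lyve1 was at 10.7 to 51.1 CPM in WT and lower, at 4.85 to 6.53 CPM, in KO. Clec4g was at 9.94 to 14.0 CPM in WT and 12.8 to 28.3 CPM in KO. Of 8 adipocyte markers, 6 were measured and summed to 0.68 to 5.03 CPM in WT and 0.23 to 2.92 CPM in KO. Adipoq, which defines adipocytes, had 5 counts in KO replicate 1, 1 count in WT replicate 6 and 0 counts in the other 8 libraries. Cfd had 45 counts in WT replicate 6, 33 in KO replicate 1, 9 in KO replicate 4 and 0 to 3 in the other libraries. Cidea had 5 to 20 counts in WT libraries and 0 to 7 in KO libraries. Retn had 6 counts in KO replicate 1, 5 in WT replicate 6, 1 in WT replicate 2 and 0 in the other libraries. Plin1 and Pnpla3 had at most 6 counts in any library. The part of adipocytes in the Fabp4, Fabp5, Cd36 and Lpl values was not tested.

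Lpl encodes lipoprotein lipase, low in adult hepatocytes (chromosome 8, 68880491 to 68907448, plus strand). It was at 12.2, 19.0, 17.7, 12.6, 31.3 and 32.01 CPM in WT replicates 1 to 6 and at 12.96, 12.9, 18.4 and 14.2 CPM in KO replicates 1 to 4. The KO libraries fell inside the WT range, which was set at its top by WT replicates 5 and 6. The log2 fold change was -0.51 (95% interval -1.14 to 0.12, adjusted p = 0.282, edgeR). With the replicate block, to which WT replicates 5 and 6 add nothing, it was -0.06.

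Vldlr encodes the very-low-density lipoprotein receptor, which is scarce in resting liver and known to rise with endoplasmic reticulum stress (chromosome 19, 27216484 to 27254231, plus strand). It was at 3.97, 8.54, 0.84, 0.48, 2.42 and 1.31 CPM in WT replicates 1 to 6, a 17.9-fold range, and at 0.55, 0.39, 0.38 and 0.31 CPM in KO replicates 1 to 4. The KO libraries held 5 to 10 counts each. WT replicate 4, with 7 counts, lay within the KO range, and the other WT libraries lay above it. KO differed from WT by a log2 fold change of -2.81 (SE 0.77, 95% interval -4.48 to -1.13, adjusted p = 0.0689, edgeR), and it did not pass. It was -2.11 without WT replicate 2 (adjusted p = 0.0892, edgeR), -2.13 in limma-voom, and -3.03 without WT replicate 4 (adjusted p = 0.0087, edgeR). WT replicate 2, the highest in Vldlr, was also the highest of all libraries in summed macrophage markers (307 CPM) and neutrophil markers (173.5 CPM, beside a WT median of 20.3 CPM and at most 17.4 CPM in KO). The same library also led in summed hepatocyte (96010 CPM), stellate cell (361 CPM), lymphocyte (10.6 CPM) and muscle (0.30 CPM) markers. It did not lead in endothelial, cholangiocyte, adipocyte or enterocyte markers. The part of any of these cells in the Vldlr values was not tested.

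**Figure D2:**
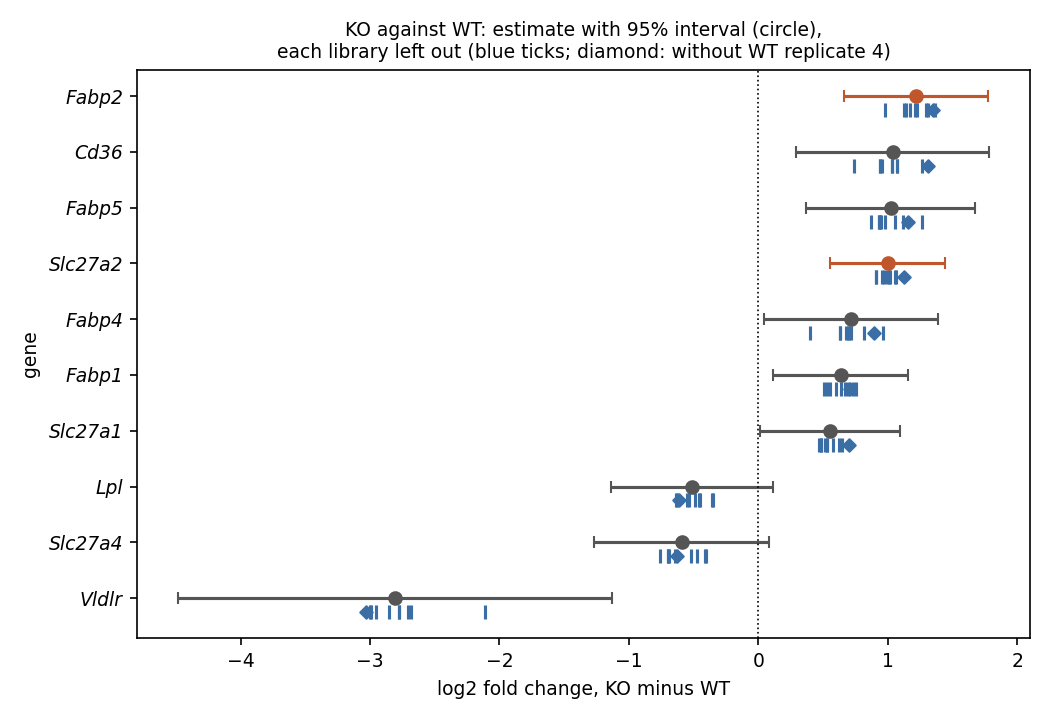
Log2 fold change, KO minus WT, of the 10 genes with the 95% interval (circle and bar, orange where the adjusted p was under 0.05), and the estimates with each library left out (blue ticks, the diamond without WT replicate 4). Estimates for Fabp2 and Slc27a2 stayed between 0.91 and 1.37, and the interval of Vldlr, from -4.48 to -1.13, was the widest.

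Across libraries the 7 members with fold changes above 0 were uneven in both groups. They were picked by the fold change between these same libraries, so KO libraries above WT libraries are partly built in. The matching shares over all genes were not computed, so the ranks below only describe these 7 genes. WT replicate 4 was the highest WT library in 6 of these 7 and WT replicate 6 in the other, Fabp1. KO replicate 4 was above every WT library in all 7 and the highest KO library in 4 (Fabp1, Fabp2, Fabp4 and Slc27a2). KO replicate 3 was the lowest KO library in 5 of the 7 and the highest in 1, Slc27a1, and it had the highest mitochondrial share of all 10 libraries (30.5%). The part of this share in the unevenness was not tested. The members differed in how tightly KO held them, from a 1.36-fold range in Slc27a2 and 1.43-fold in Lpl to 3.16-fold in Cd36 and 3.59-fold in Fabp4.

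**Figure D3:**
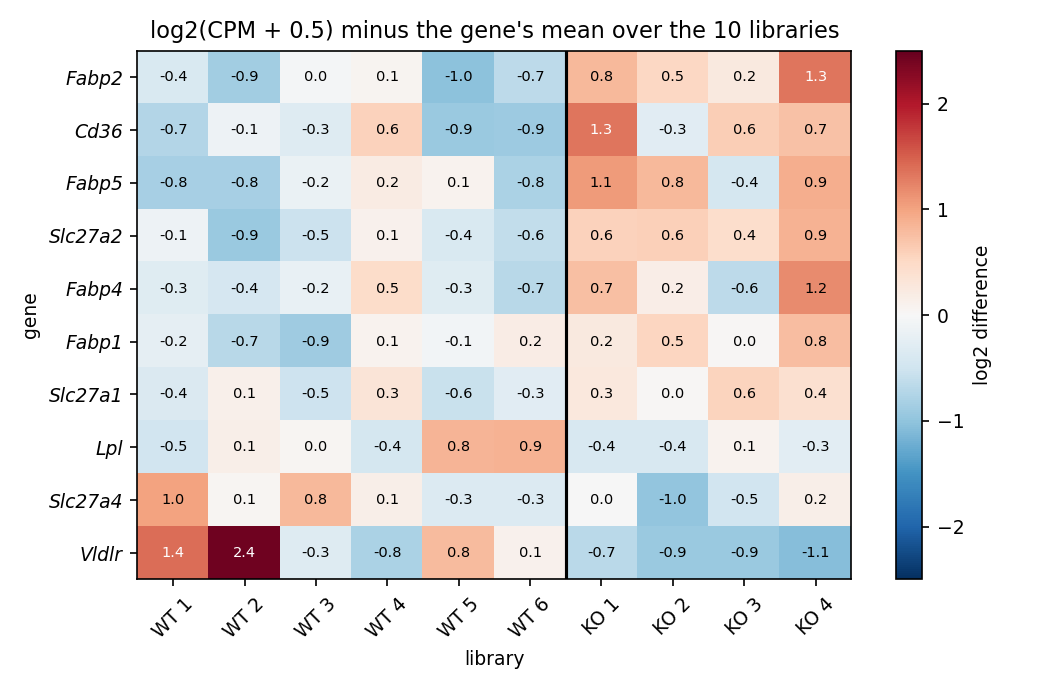
Difference of log2(CPM + 0.5) from the gene's mean over the 10 libraries, for each gene (rows) and library (columns, WT left of the line, KO right), with red above and blue below the mean. Rows are in order of fold change, so the upper 7, with fold changes above 0, are mostly blue in WT and red in KO. Exceptions include KO replicate 3 at -0.6 in Fabp4, and Vldlr reached 2.4 in WT replicate 2.

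Levels of different genes were compared per kilobase of the longest protein-coding transcript in GENCODE M21. On this scale Fabp1 led in WT at 3173 ± 887 CPM per kilobase (SD, n = 6), at the 99.7th percentile of tested coding genes, followed by Slc27a2 at 185.5 ± 48.1. Fabp4 (87.8 ± 26.2), Fabp2 (54.4 ± 16.8) and Fabp5 (29.5 ± 10.1) came next. Slc27a4 (10.01 ± 4.16), Lpl (5.06 ± 2.15), Cd36 (4.34 ± 2.04), Slc27a1 (1.34 ± 0.4) and Vldlr (0.37 ± 0.38) were lower, all in CPM per kilobase. In WT the ranges of neighbours in this order overlapped except between Fabp1 and Slc27a2, Fabp5 and Slc27a4, and Cd36 and Slc27a1. In KO the mean of Cd36 (8.92 CPM per kilobase) stood above those of Slc27a4 (6.63) and Lpl (3.55), though its range of 4.4 to 13.9 overlapped that of both.

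**Figure D4:**
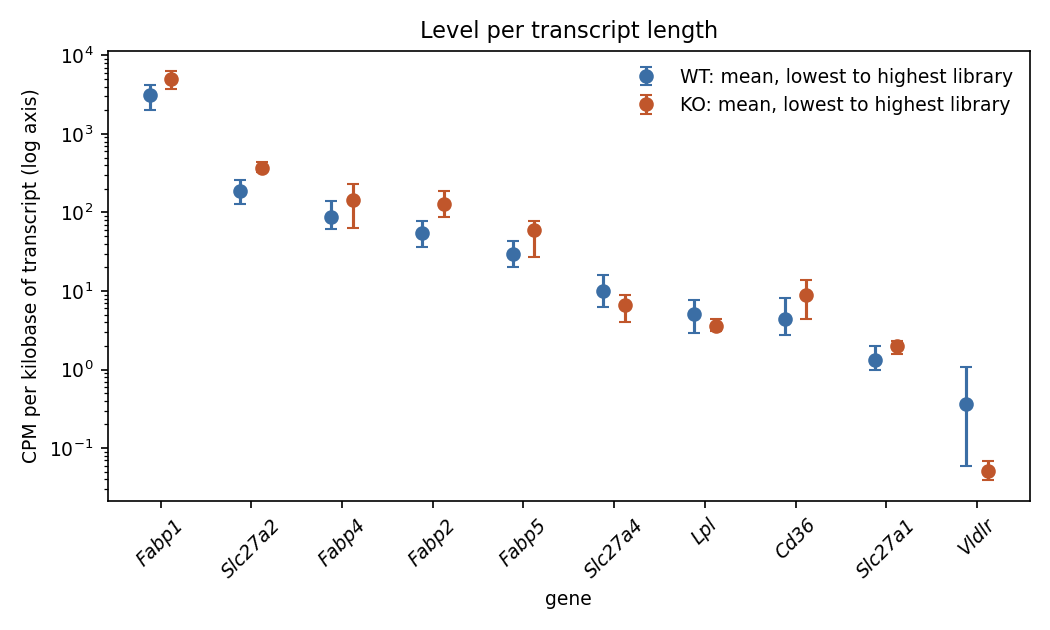
Level of each gene in CPM per kilobase of transcript on a log axis, ordered by the WT mean, with the mean (circle) and the lowest to highest library (bar) of 6 WT (blue) and 4 KO (orange) libraries. Fabp1 lay at 3173 in WT and Vldlr at 0.37.

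Other genes of fatty acid uptake were read from 5 lists that did not include the members. Of 72 listed genes 63 were tested, 31 with fold changes above 0 and 32 below (median -0.00, log2), and 1 passed, lower in KO. This is near the share over all genes tested (1.33% in either direction, 0.767% lower in KO). That gene was Mfsd2a, a transporter of lysophosphatidylcholine that carries polyunsaturated fatty acids, at 291 to 539 CPM in WT and at 111, 96.3, 124 and 266 CPM in KO replicates 1 to 4. Every KO library lay below every WT library, KO replicate 4 narrowly so. It fell by 1.49 on the log2 scale (SE 0.29, adjusted p = 0.044, edgeR), by 1.92 without KO replicate 4 and by 1.33 without KO replicate 2. Its call was lost without any 1 of WT replicates 1, 2, 3, 5 and 6 or KO replicates 1 to 3 (edgeR adjusted p 0.055 to 0.148) and with the replicate block (0.136).

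Among the family relatives and acyl-CoA synthetases, 7 of 14 were tested and 0 passed, with 3 above and 4 below 0 (median log2 fold change -0.27). Acsl3, an acyl-CoA synthetase of lipid droplets, had the smallest p, with a mean of 8.36 CPM in WT and 20.8 CPM in KO (log2 fold change 1.31, adjusted p = 0.0637, edgeR). WT replicate 4 was at 14.6 CPM, above KO replicates 1 and 4, and KO replicate 2 was at 37.8 CPM. Acsl3 passed without WT replicate 4 (log2 fold change 1.54, adjusted p = 0.00557, edgeR) and in DESeq2 (adjusted p = 0.00823), and its log2 fold change was 0.85 without KO replicate 2. In the list of other lipid carriers 5 of 12 tested genes had fold changes above 0, and Mfsd2a above was the called one.

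Of the 14 lipoprotein lipase partners and related lipases, all tested, 0 passed, with 7 above and 7 below 0 (median 0.02). Lipa, the lysosomal acid lipase, had the smallest p (means 50.9 and 70.2 CPM in WT and KO, log2 fold change 0.46, adjusted p = 0.14, edgeR). Gpihbp1, which anchors lipoprotein lipase to capillaries, averaged 19.3 and 12.2 CPM in WT and KO, and Angptl4, an inhibitor of the lipase, 244 and 232 CPM. Neither passed.

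Of 12 lipoprotein receptors and regulators, 0 passed, with 6 above and 6 below 0 (median 0.08). Sdc1, a heparan sulfate proteoglycan that takes up remnant lipoproteins, averaged 432 ± 178 CPM over WT and 165 ± 38.8 CPM over KO libraries (SD, n = 6 and 4), with the smallest p of the list (log2 fold change -1.38, adjusted p = 0.0664, edgeR). WT replicate 4, at 122 CPM, lay within the KO range and the other WT libraries lay between 327 and 618 CPM. Sdc1 passed without WT replicate 4 (log2 fold change -1.58, adjusted p = 0.000898, edgeR) and in DESeq2 (adjusted p = 0.0041). Of 18 transcription factors known to act on these genes, 0 passed, with 10 above and 8 below 0 (median 0.09). Nr1i2, the pregnane X receptor and a known activator of Cd36, had the smallest p, averaging 159 ± 67.3 CPM over WT and 57.1 ± 11.7 CPM over KO libraries (SD, n = 6 and 4) (log2 fold change -1.48, adjusted p = 0.051, edgeR). It passed in DESeq2, in limma-voom, without a filter, without robust estimation and without WT replicate 4 (log2 fold change -1.63, adjusted p = 0.00147, edgeR). Ppara, the receptor of fatty acids that drives Fabp1 and Slc27a2, averaged 21.2 CPM in WT and 34.8 CPM in KO (log2 fold change 0.72, adjusted p = 0.0829, edgeR), and Pparg, a driver of Fabp4 and Lpl in fat cells, 4.78 and 5.30 CPM. Ppara did not pass.

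The genes most like Slc27a2 and Vldlr, the members with the smallest p in each direction, were ranked by the correlation of log2 CPM over the 10 libraries. For Slc27a2, among 9435 genes with a mean of at least 5 CPM, they were Hacl1 (Pearson r = 0.989, Spearman rho = 0.988), Mplkip (0.960 and 0.927) and Eci1 (0.960 and 0.952). Within the 6 WT libraries alone Pearson r was 0.991, 0.919 and 0.812. Hacl1, an enzyme of peroxisomal alpha-oxidation, and Eci1, of mitochondrial beta-oxidation, rose by 1.37 and 1.01 on the log2 scale (adjusted p = 0.0468 and 0.044, edgeR). Mplkip, with a log2 fold change of 0.80, did not pass (adjusted p = 0.0743, edgeR). For Vldlr they were Mapk6 (Pearson r = 0.986, Spearman rho = 0.879), Dbr1 (0.984 and 0.891) and Golt1b (0.984 and 0.988). Within WT alone Pearson r was 0.992, 0.989 and 0.982. Their log2 fold changes were -1.14, -0.54 and -0.87, and none passed (adjusted p = 0.0743, 0.163 and 0.106, edgeR). The correlations describe likeness among 10 libraries that share the contrast between groups, and no test was attached to them. The genes were chosen for likeness to a member, so their adjusted p-values are not separate evidence.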

How the data were processed

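Poly(A) RNA was sequenced in 6 WT and 4 KO liver libraries on an Illumina NovaSeq after TRIzol extraction and a NEBNext Ultra kit, per the labels' protocols. The authors deposited raw read counts per gene symbol, 1 column per library, and all columns were used (0 left out). STAR, HTSeq and DESeq2 with mm10 are named in the submitters' processing notes. Versions, gene annotation and strandedness of the counting: not given in the sources used here. Nothing states that libraries came from separate animals, so the p-values reflect only how these libraries vary, which may be technical. Pairs of libraries within a group differed far beyond sampling noise (chi-square per degree of freedom at least 20.8).

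Groups were compared in all 10 libraries by the quasi-likelihood test of edgeR (version 4.0.16, under R 4.3.3) with TMM, filterByExpr by group, robust dispersion and no covariate. It ran on 13688 genes, with Benjamini-Hochberg adjustment over all of them and calls under 0.05. The standard error was the log2 fold change over the square root of F. CPM used TMM-scaled library sizes, means are ± SD, and log2 CPM for likeness used a prior count of 2. Exact permutation p-values of the 10 members are unadjusted. Alternatives were RLE and upper-quartile scaling, other filters, DESeq2 1.42.0, limma-voom (limma 3.58.1), no robust estimation, a replicate block and each library left out. The statistical code was tested on simulated data. Coding-transcript lengths came from GENCODE M21 (11800 of 13688 tested genes), and similar transcripts from BLAST+ 2.17.0.

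Named genes were the members, every called gene of the lists or else the gene with the smallest p of a list, the 3 genes most like Slc27a2 and Vldlr, and Ifrd1. Apoa4, Gpihbp1, Angptl4, Ppara, Pparg, Cav1, Cav2, Sort1, Ahr, the pseudogenes and single markers were named after their values were seen. The members and lists were chosen with earlier results of these data known. Depth limits Vldlr (5 to 113 counts) and Slc27a1 (32 to 95 counts) most.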

Additional observations from a re-analysis of the deposited data

Results flagged for a closer look

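Of 32 groups of libraries examined (10 members, the 5 named list genes and Ifrd1, in WT and in KO), 2 held a library whose gap to its nearest neighbour, over the range of the group on the log2(CPM + 0.5) scale, passed Dixon's 95% critical value. Chance flags about 1 in 20 such groups. Fabp5 in KO replicate 3 was at 26.8 CPM, where the other KO libraries lay between 64.2 and 76.6 CPM (gap over range 0.831). The log2 fold change of Fabp5 was 1.27 without it. Ifrd1 in KO replicate 1 was at 13.02 CPM, below the 20.8 to 22.6 CPM of the other KO libraries (0.852). Neither passed on the linear CPM scale (0.751 and 0.817). On that scale 3 other groups did: Acsl3 with KO replicate 2 at 37.8 CPM (0.853), Mfsd2a with KO replicate 4 at 266 CPM (0.838) and Fabp4 with WT replicate 4 at 124 CPM (0.658). The linear scale was added after seeing the data.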

How the results depend on the processing

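Each member and each named list gene kept its direction in all 18 alternatives, 270 comparisons in all, of which 225 kept their side of the threshold, 29 lost the call and 16 gained it. The count of called genes, 182 with all libraries, was 1618 in DESeq2, 318 in limma-voom and 1 with the replicate block, and ranged from 0 to 2893 when each library was left out. Leaving out WT replicate 4 gave 2893, WT replicate 2 gave 55, WT replicate 6 gave 20, WT replicate 3 gave 10, and WT replicate 1, WT replicate 5 or KO replicate 4 gave 2. Leaving out KO replicate 1, 2 or 3 gave 0. In the fits of edgeR with 0 calls, 2729, 2681 and 2740 genes had an unadjusted p under 0.05. The count of called members, 2 with all libraries, was 5 in DESeq2 and 0 with the replicate block, and ranged from 0 to 6 with each library left out. The count of called list genes, 1 with all libraries, was 3 without a filter, 2 without robust estimation, 12 in DESeq2, 5 in limma-voom and 0 with the replicate block, and ranged from 0 to 21 with each library left out. The cause of these differences was not tested. RLE and upper-quartile scaling and the 1 CPM filter kept both called members, and the median log2 fold change of all genes stayed between -0.02 and 0.03. Same-numbered WT and KO libraries deviated together in 1 of 4 pairs at over 0.1 (correlations 0.179, 0.069, -0.029 and -0.02), and 2 of the 4 KO libraries correlated best with their own number. No reference for these correlations was computed, so they cannot decide whether the numbers pair the samples. The main fit treated the libraries as unpaired, and with the replicate block both member calls were lost.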

Other observations

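Ratios of counts within a library do not depend on scaling, and were computed after the values had been seen, with no test. Slc27a2 had 8.41 to 21.2 counts for each count of Slc27a4 in WT (mean 14.9 ± 5.79, SD, n = 6). In KO it had 32.4 to 65.4 (43.6 ± 14.9, SD, n = 4), without overlap. Slc27a2 alone was already separate between groups and Slc27a4 had a fold change below 0, so this separation is not further evidence. In WT the ratio was 9.85, 10.9 and 8.41 in replicates 1 to 3 and 21.2, 20.8 and 17.97 in replicates 4 to 6, so WT replicate 4 was not alone at the top of its group. The ratio of Fabp4 to Fabp5 counts was 2.81 ± 0.61 (SD, n = 6) in WT and 2.18 ± 0.6 (SD, n = 4) in KO, with overlap. That of Fabp2 to Fabp1 also overlapped, at 0.018 to 0.062 in WT and 0.034 to 0.052 in KO. Cd36 had 0.3 to 2.19 counts for each count of Lpl in WT, highest in WT replicate 4, and 1.16 to 3.64 in KO.

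Among the list genes that did not pass the test, the libraries of WT and KO were separate for Cav1 and Cav2, which form caveolae, Sort1, a sorting receptor of apolipoprotein B, and Ahr, a xenobiotic receptor known to act on Cd36. All 4 were higher in KO, with log2 fold changes of 1.39, 0.95, 1.03 and 1.53 and edgeR adjusted p of 0.053, 0.0892, 0.0793 and 0.0604. They were 4 of 63 tested list genes, where 3.61% of all genes tested were separate and higher in KO.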
